A study of Mus musculus with 6 samples.

Results

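The genes described here act in G2 and mitosis, the part of the cell cycle in which a cell with replicated DNA prepares to divide and then divides. A list of 38 such genes was looked up by gene name among the probes of a whole-genome mouse array, whose probes carry 34844 names in all, and each of the 38 had at least 1 probe, with 55 probes between them. Male mice of 4 months of age gave the RNA, from isolated glomeruli, the filtering tufts of the kidney. The glomerulonephritis group is BXSB/MpJ-Yaa, whose Y chromosome holds the Yaa locus, a piece copied from the X. BXSB/MpJ-Yaa+ males, the controls, have the same recombinant inbred background, derived from a C57BL/6 female and an SB/Le male, with a wild-type Y chromosome. Glomeruli were collected by bead perfusion. The 6 glomerular populations of each strain were combined 2 at a time, so that every array holds a pool and each group has 3 arrays. The model is a whole-animal strain difference, and the preparation holds every cell type that stayed with the glomeruli.

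Passage through mitosis is driven by cyclin-dependent kinase 1, which is active only when bound to a cyclin of the A or B type. The mitotic kinases, the kinetochore and the spindle then separate the chromosomes, and the anaphase-promoting complex ends mitosis by marking cyclins and other proteins for destruction. Transcripts of most of these genes accumulate in G2 and are scarce in resting cells, which is why Mki67 and Top2a serve as markers of proliferation. Podocytes, the epithelial cells of the filter, are known as cells that hardly divide, while mesangial, endothelial and infiltrating blood cells can proliferate in glomerulonephritis.

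Signals are given as a percent of the 75th percentile of the same array, a scale on which 100 is a fairly bright probe. Levels of different probes cannot be set against each other on this scale. Fold changes are log2 values of Yaa over control ± SE, with 3 arrays per group, and adjusted p-values are from limma with Benjamini-Hochberg adjustment over all 20717 genes tested. The 75th percentile lay between 261.1 and 432.0 (highest on Yaa replicate 3), and 50.5% to 59.8% of the spots of an array were well above background, the scanner software's flag for a spot that clearly exceeds its background. The source name gave the opposite strain in every sample. Tlr7, a gene of the copied X stretch, stood at 304 to 319 on the arrays titled control and at 556 to 605 on those titled Yaa (0.91 ± 0.12, adjusted p = 0.00693), and the titles were followed. Of the podocyte markers 6 of 8 were measured well enough to be tested, while Nphs1 (nephrin) was above background on 1 array of each group. So were 8 of 8 markers of the proximal tubule. With no other tissue on these arrays, this does not show how pure the glomeruli were. Each strain filled a slide column of its own, so that strain and column cannot be told apart.

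In Yaa glomeruli 10 mitotic genes were higher. Kif23, Melk, Mki67, Cdca8, Tpx2, Birc5, Ccna2, Nusap1, Prc1 and Aurka rose, and none of the 38 fell. On the log2 scale the rises ran from 1.77 (Aurka) to 2.86 (Birc5), apart from Melk, whose control level was not measured and which rose by at least 1.51. Such a lower bound sets each control array no lower than its dimmest probe well above background. It is a working limit and not a strict minimum, since a probe can miss the flag above that level, as Nusap1 did in controls. Of the 38 genes 27 were measured well enough to be tested, which means well above background on all 3 arrays of at least 1 group. Of those 27, 10 rose and 17 did not pass, where 3.81% of all genes tested were called, 2.96% as higher and 0.85% as lower in Yaa. An unadjusted p under 0.05 was reached by 24 of them, against 16.1% of all genes, and in 24 every Yaa array lay above every control array, against 7.81%. A gene that was tested because of its Yaa arrays alone had to be higher there. The 21 genes whose tested probe was above background on all 6 arrays are therefore given apart. Among these 6 rose (Mki67, Cdca8, Birc5, Ccna2, Prc1 and Aurka), none fell and 15 did not pass, with a median fold change of 1.35, where 2.41% of all genes above background on all 6 arrays rose and the median of these was -0.11. Groups were apart, with all Yaa arrays higher, in 18 of the 21, against 7.23% of all genes of this kind. The exceptions were Cenpa, Cdk1 and Hmmr. Tpx2 is not among the 21, since its tested probe was above background on 1 control array. Its other probe was above background on all 6 arrays and differed by -0.30. In the limma fit limited to such probes, which held Tpx2 through that probe, 7 of 22 mitotic genes rose and Tpx2 did not (adjusted p = 0.780). Over all 27 the median was 2.06, or 1.77 with Melk and Bub1b at their lower bounds. In bulk RNA more dividing cells and more RNA per cell cannot be told apart.

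**Figure D1:**
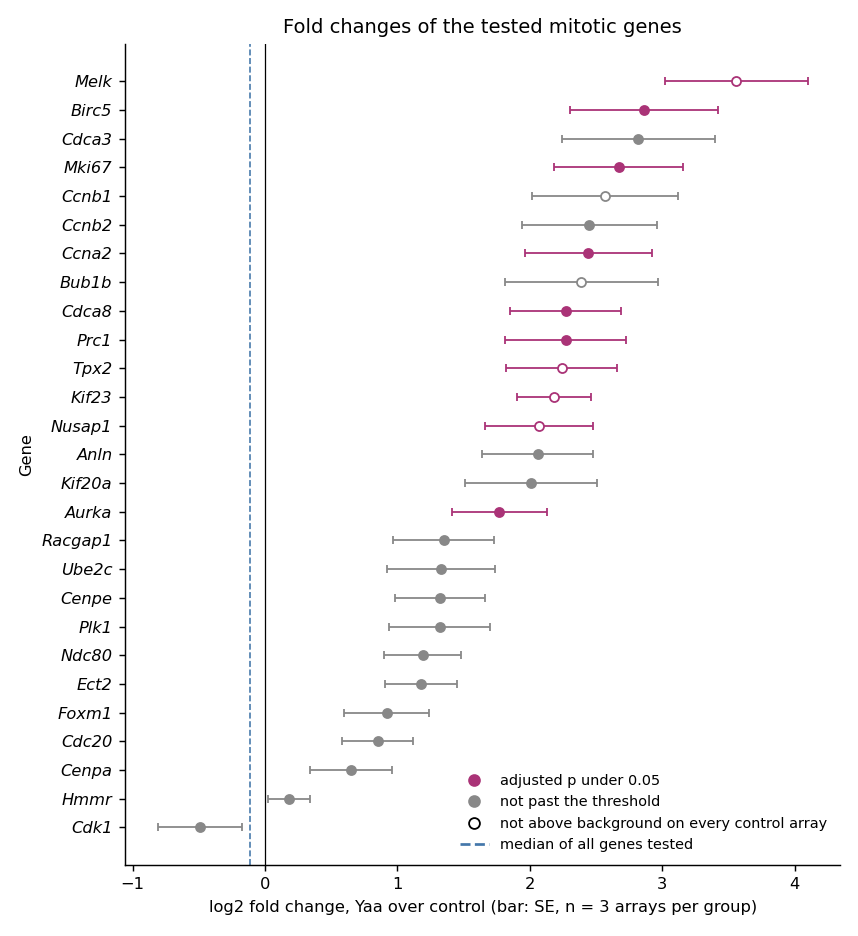
Log2 fold change of Yaa over control (x axis; bars, SE, n = 3 arrays per group) for the 27 mitotic genes tested (y axis), with genes past an adjusted p of 0.05 in colour, and open points for genes not above background on every control array. Fitted values run from -0.49 for Cdk1 to 3.56 for Melk, whose control level was not measured, and the dashed line is the median of all genes tested, -0.11.

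The number of genes called differed with the arrays in the fit. With Yaa replicate 2 left out 24 of 29 tested genes rose, among them 17 of the 21. Without Yaa replicate 1 they were Kif23, Melk and Kif4, without Yaa replicate 3 Kif23, Melk and Cdca8, and without control replicate 1, 2 or 3 Kif23 alone, so that 0, 1 and 0 of the 21 rose. With the replicate number as a block 11 rose, of which Anln, Cdca3, Ccnb2, Ect2 and Ndc80 were not among the first 10, and Tpx2, Birc5, Ccna2 and Nusap1 no longer passed. Normexp background correction, whose added offset compresses the ratios of dim probes, gave 6 rises and a median of 0.92 over the 27, against 2.06, and the fit of all probes without a filter gave 2 rises, Kif23 and Kif4. Of the genes in these counts, Melk, Kif4, Top2a and Bub1 were below the background flag in every control pool. Kif23 and Tpx2 were above it on 1 control array, and Nusap1 and Ccnb1 on 2. In each of these alternatives none fell.

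**Figure D2:**
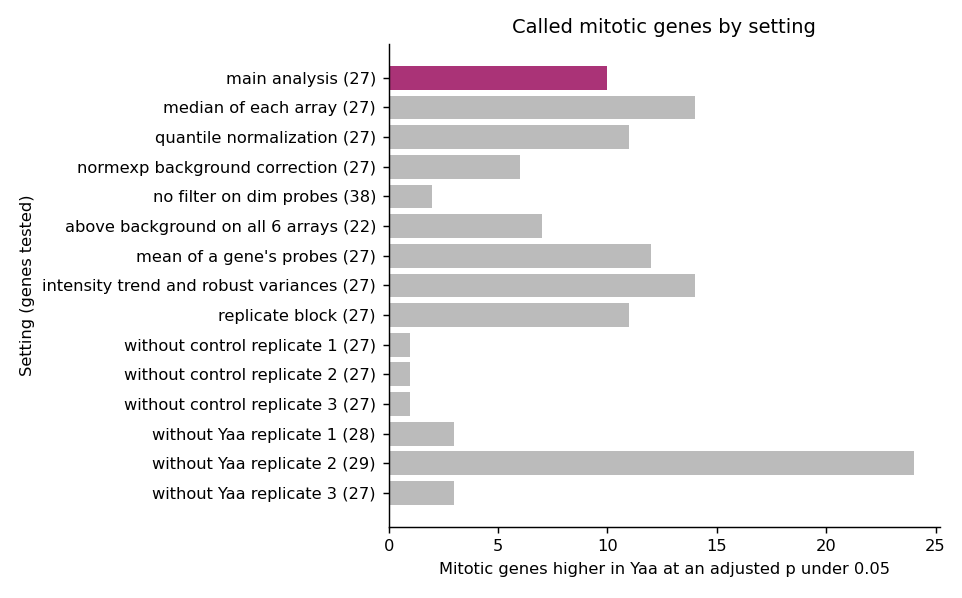
Number of mitotic genes higher in Yaa at an adjusted p under 0.05 (x axis) in the main analysis and in each alternative (y axis, with the number of mitotic genes tested in brackets). The count was 10 in the main analysis, lowest at 1 without any of the control arrays and highest at 24 without Yaa replicate 2.

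The Yaa arrays differed from each other in the same order for most of these genes. Over the 21 genes above background on all 6 arrays, the median distance from the control mean was 1.64 on Yaa replicate 1, 0.63 on Yaa replicate 2 and 2.07 on Yaa replicate 3 (log2), while the control arrays lay at 0.16, -0.24 and -0.09. Yaa replicate 2 was the lowest Yaa array for 20 of the 21, Cdk1 being the exception, against 21.4% of all genes above background on all 6 arrays and 30.3% of the 604 other genes that rose. The full order of replicate 3, then 1, then 2 held for 14 of the 21, against 8.49% and 21.5%. Replicate 3 was the highest Yaa array for 66.7% of the 21, against 28.2% and 64.6%, so that other genes that rose shared this part of the order. The SD among Yaa arrays had a median of 0.81 over the 21 genes, and 0.35 among control arrays. For all genes of this kind these medians were 0.23 and 0.15.

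**Figure D3:**
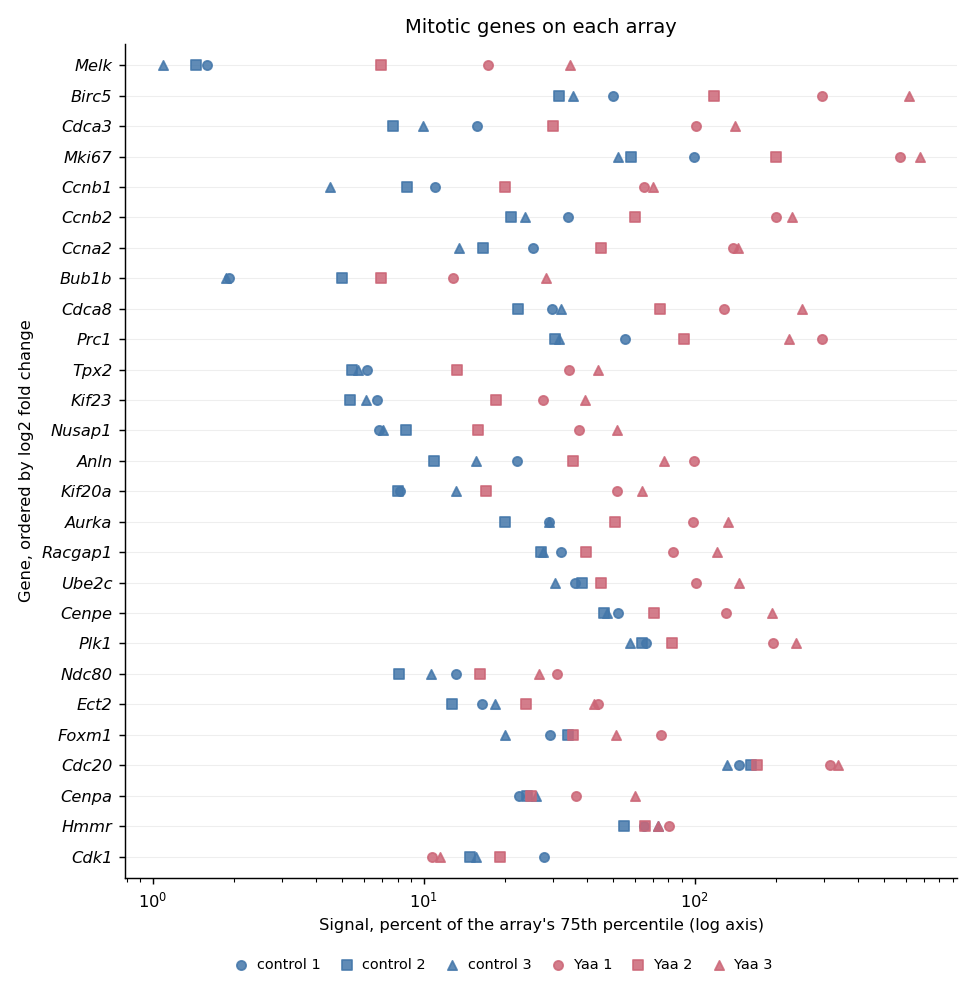
Signal as a percent of the array's 75th percentile (x axis, log scale) on each of the 6 arrays for the 27 tested mitotic genes (y axis, ordered by fold change); blue symbols are control pools and red symbols Yaa pools, and symbol shape gives the replicate number. Yaa replicate 2 (red squares) sits nearest the control arrays for most genes, for example at 200 for Mki67 against 574 and 676 on the other Yaa arrays.

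Promoters of genes of G2 and mitosis are known for CCAAT boxes, bound by the factor NF-Y, and for the cell cycle genes homology region (CHR), bound by complexes that repress these genes in resting cells and activate them before division. RefSeq promoters on GRCm38.p6 were matched for 33 of the 38 genes, with 35 promoter windows of 250 bases before the gene start. Ccna2, Aurkb, Tpx2, Kif20a and Foxm1 were not matched. CCAAT was searched on both strands, as were the CHR letters TTTGAA and its variants TTCGAA and TTTAAA, which read the same on both strands. Matches of different motifs may share bases at their ends. At least 1 CCAAT was in 28 of the 35 windows (80.0%), against 33.8% of all 32851 promoter windows of this length. TTTGAA was in 12 (34.3%, against 16.0% of all), TTTAAA in 6 (17.1%, against 12.1%) and TTCGAA in 2 (5.71%, against 1.34%). Windows with both a CCAAT and any CHR form numbered 16 (45.7%, against 9.21%). Such a match describes letters in this window and does not show a bound site.

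The windows below run 5′ to 3′ and end at the base before the gene start, and capitals mark the matches. Mki67, Ccnb2, Cdk1 and Ube2c hold both kinds of motif. Of these Mki67 rose, Ccnb2 and Ube2c did not pass, and the groups of Cdk1 overlapped on its brightest probe. Hmmr, whose groups also overlapped, holds 5 CCAAT matches and no CHR form. Melk, which rose, holds no match. A link between the motifs and the rises was not tested.
Mki67 (GRCm38.p6 chr7:135716380-135716629, minus strand): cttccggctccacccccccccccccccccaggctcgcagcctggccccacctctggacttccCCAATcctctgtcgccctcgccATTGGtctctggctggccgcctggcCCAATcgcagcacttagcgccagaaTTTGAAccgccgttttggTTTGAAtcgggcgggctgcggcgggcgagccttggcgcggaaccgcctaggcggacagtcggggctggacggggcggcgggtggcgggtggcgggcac
Ccnb2 (GRCm38.p6 chr9:70421555-70421804, minus strand): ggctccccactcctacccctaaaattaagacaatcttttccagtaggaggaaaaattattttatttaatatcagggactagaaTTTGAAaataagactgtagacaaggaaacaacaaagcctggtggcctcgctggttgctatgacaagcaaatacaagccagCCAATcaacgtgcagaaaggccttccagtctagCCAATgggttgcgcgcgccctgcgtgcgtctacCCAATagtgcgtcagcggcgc
Cdk1 (GRCm38.p6 chr10:69352913-69353162, minus strand): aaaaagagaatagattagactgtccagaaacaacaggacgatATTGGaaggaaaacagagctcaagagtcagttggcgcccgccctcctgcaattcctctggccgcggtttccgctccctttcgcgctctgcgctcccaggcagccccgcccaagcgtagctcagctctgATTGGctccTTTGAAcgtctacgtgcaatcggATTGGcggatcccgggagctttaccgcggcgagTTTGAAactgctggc
Ube2c (GRCm38.p6 chr2:164769679-164769928, plus strand): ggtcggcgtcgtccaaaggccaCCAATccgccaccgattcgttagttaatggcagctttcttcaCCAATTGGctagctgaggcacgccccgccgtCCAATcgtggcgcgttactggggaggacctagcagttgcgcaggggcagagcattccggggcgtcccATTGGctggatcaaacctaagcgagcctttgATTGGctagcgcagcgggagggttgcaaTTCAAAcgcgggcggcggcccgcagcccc
Hmmr (GRCm38.p6 chr11:40733438-40733687, minus strand): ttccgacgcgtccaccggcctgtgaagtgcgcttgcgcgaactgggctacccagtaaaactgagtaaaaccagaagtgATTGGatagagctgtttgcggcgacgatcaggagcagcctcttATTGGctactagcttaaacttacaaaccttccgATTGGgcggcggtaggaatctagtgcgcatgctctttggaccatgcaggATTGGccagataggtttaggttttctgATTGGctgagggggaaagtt
Melk (GRCm38.p6 chr4:44300667-44300916, plus strand): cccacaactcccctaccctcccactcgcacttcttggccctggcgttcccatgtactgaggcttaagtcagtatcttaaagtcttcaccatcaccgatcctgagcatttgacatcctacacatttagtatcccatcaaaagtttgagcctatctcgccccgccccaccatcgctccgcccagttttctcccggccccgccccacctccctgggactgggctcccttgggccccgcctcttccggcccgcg
In Cdk1 a TTTGAA match began 15 bases before the start and CCAAT matches began 48, 80 and 208 bases before it, and in Ube2c the TTTGAA match began 29 bases before the start, with the nearest CCAAT match at 57.

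The cyclins came first among the drivers of mitosis. Ccna2, cyclin A2, had signals of 25.3, 16.6 and 13.5 on control replicates 1 to 3 and of 139, 45.2 and 145 on Yaa replicates 1 to 3, and rose by 2.44 ± 0.48 (adjusted p = 0.0427, and 0.0582 with the replicate block). Ccnb2, cyclin B2, was at 34.1, 20.9 and 23.6 in control pools and at 200, 60.1 and 228 in Yaa pools, a difference of 2.45 ± 0.51 that missed the threshold (adjusted p = 0.0522) and passed it with the block (0.0454). The groups did not overlap for either cyclin, and Yaa replicate 2 was the Yaa array nearest the control arrays. Ccnb1, cyclin B1, was at 11.0, 8.70 and 4.51 against 65.1, 19.9 and 70.0 (2.57 ± 0.55, adjusted p = 0.0573), with 2 of the 3 control arrays above background. Its other 2 probes were above background on Yaa replicate 3 alone.

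Cdk1, the kinase that these cyclins activate, gave opposite pictures on its probes, all on the minus strand of chromosome 10 in mm9, the assembly of the array. Its brightest probe, A_55_P2016647 at chr10:68799513-68799572, was at 27.8, 14.8 and 15.6 in control pools and at 10.7, 19.1 and 11.5 in Yaa pools. The groups overlapped there, with a fold change of -0.49 ± 0.32 (adjusted p = 0.496). A_55_P2048588, at chr10:68801072-68801131, was below that flag in every control pool (4.58, 3.44 and 4.70) and was at 31.1, 17.2 and 43.2 in Yaa pools, at least 5.02-fold higher by its lower bound. On this probe the Yaa arrays stood in the order of the other mitotic genes, with replicate 2 lowest. The remaining probe, A_55_P2016652, overlaps it at chr10:68801053-68801112 and was not above background on any array. With normexp correction A_55_P2048588 became the brightest Cdk1 probe and passed, at a fitted 0.91 (adjusted p = 0.0341), and the mean of the kept probes gave 1.14 (adjusted p = 0.0267), so that the call and direction for Cdk1 rest on the choice of probe.

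Regulators of mitotic entry differed in size. Melk, a kinase named for its maternal embryonic expression, was below the background flag in every control pool (1.59, 1.44 and 1.09) and was at 17.3, 6.95 and 34.5 in Yaa pools. It rose at least 2.84-fold (adjusted p = 0.0152, with a fitted log2 difference of 3.56 ± 0.54 that rests on unmeasured control values). With normexp correction its fold change was 0.69 (adjusted p = 0.101). Cdca3, which promotes the removal of the Cdk1 inhibitor Wee1, was at 15.7, 7.68 and 9.96 against 101, 29.9 and 141 (2.82 ± 0.58, adjusted p = 0.0506, and 0.0367 with the block). Its groups did not overlap. Foxm1, the transcription factor that drives many G2 genes, was at 29.3, 34.2 and 20.0 against 74.9, 35.4 and 51.0 (0.92 ± 0.32, adjusted p = 0.217), with Yaa replicate 2 next to the highest control array.

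Among the mitotic kinases, Aurka, which matures centrosomes and spindle poles, rose by 1.77 ± 0.36 (adjusted p = 0.0485), with signals of 29.0, 20.0 and 29.1 in control pools and 98.7, 50.8 and 133 in Yaa pools. Plk1, which acts from mitotic entry to cytokinesis, was at 66.1, 63.9 and 57.6 against 195, 82.2 and 236 (1.32 ± 0.38, adjusted p = 0.142). The 3 control arrays of Plk1 lay close together, and the spread was among the Yaa arrays, with SDs of 0.10 and 0.81. Nek2, a centrosomal kinase, was above background on Yaa replicate 3 alone.

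The chromosomal passenger complex corrects faulty attachments of chromosomes to the spindle. Birc5, survivin, a subunit of this complex, rose by 2.86 ± 0.56 (adjusted p = 0.0425, and 0.0552 with the block), from 50, 31.5 and 35.4 in control pools to 296, 118 and 620 in Yaa pools. Its other probes were below the background flag in every control pool and above it on all Yaa arrays, at least 3.70-fold and 2.48-fold higher there. Cdca8, borealin, rose by 2.27 ± 0.42 (adjusted p = 0.0349), from 29.8, 22.2 and 32.1 to 128, 74.5 and 249. Its second probe was below the background flag in every control pool and at least 1.80-fold higher in Yaa samples. For both genes every kept probe had Yaa replicate 3 highest and replicate 2 lowest among the Yaa arrays. Aurkb, the kinase of the complex, had a single probe that was not above background on any array, so that its level was not measured here.

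The spindle checkpoint holds back anaphase until all chromosomes are attached, and its target is the activator Cdc20 of the anaphase-promoting complex. No gene of this group passed. Cdc20 was at 146, 161 and 132 in control pools and at 316, 170 and 339 in Yaa pools (0.85 ± 0.27, adjusted p = 0.187). Ube2c, the ubiquitin-conjugating enzyme of the complex, was at 36.0, 38.4 and 30.4 against 101, 45.1 and 146 (1.33 ± 0.41, adjusted p = 0.169), and its second probe differed by 1.78. In both genes Yaa replicate 2 lay just above the control arrays. Bub1b, which encodes the checkpoint protein BubR1, stayed below the background flag in every control pool and reached 12.8, 6.98 and 28.2 in Yaa pools, at least 2.41-fold higher by the same bound (adjusted p = 0.0888). Bub1, its paralogue with 10 spots of 1 probe, was above background on 2 of the 3 Yaa arrays, at 13.1 and 21.6 on replicates 1 and 3, and was left untested. It was below the background flag in every control pool. Without Yaa replicate 2 it entered the fit, through its Yaa arrays alone, and rose at least 2.97-fold (adjusted p = 0.00366). That p-value rests on control values of Bub1 that were not measured, and a gene let in this way had to be higher in Yaa. Ttk, the checkpoint kinase also called Mps1, was not above background on any array.

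No gene of the centromere and kinetochore passed, and none tested differed by more than 1.32. Cenpe, the kinetochore motor, was at 52.0, 46.4 and 47.3 in control pools and at 130, 70.9 and 193 in Yaa pools (1.32 ± 0.34, adjusted p = 0.105). Ndc80, the microtubule-binding subunit of the outer kinetochore, was at 13.2, 8.07 and 10.6 against 31.0, 16.1 and 26.7 (1.19 ± 0.29, adjusted p = 0.0904, and 0.0231 with the block). In neither gene did the groups overlap. Cenpa, the histone H3 variant that marks centromeres, was at 22.5, 24.1 and 26 against 36.4, 24.9 and 60.4 (0.65 ± 0.31, adjusted p = 0.357), with Yaa replicate 2 within the control range. Nuf2, the partner of Ndc80, was above background on Yaa replicate 3 alone, and Cenpf, a large kinetochore protein of late G2, on no array.

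Mki67 encodes Ki-67, a coat of mitotic chromosomes and the usual histological marker of cycling cells. Its brightest probe, on the minus strand at chr7:142884764-142884823 (mm9), was at 99.7, 58.3 and 52.2 in control pools and at 574, 200 and 676 in Yaa pools, and rose by 2.67 ± 0.49 (adjusted p = 0.0339), a 6.34-fold difference. A second probe at chr7:142881591-142881650 differed by 2.60, with the Yaa arrays in the same order. Top2a, the topoisomerase that untangles sister chromosomes, was not above background on any control array (2.23, 1.48 and 2.08) and was above it on Yaa replicates 1 and 3, at 15.1 and 44.3, but not on replicate 2, at 4.84. Without that array it entered the fit, through its Yaa arrays alone, and rose at least 4.57-fold (adjusted p = 0.0146). That p-value rests on control values of Top2a that were not measured, and a gene let in this way had to be higher in Yaa. Ncapg, a subunit of condensin I, was not above background on any array.

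Of the spindle motors and microtubule proteins, Tpx2 and Nusap1 rose. Nusap1, which bundles spindle microtubules, was at 6.85, 8.63 and 7.07 in control pools and at 37.3, 15.9 and 51.7 in Yaa pools (2.07 ± 0.41, adjusted p = 0.0443, and 0.0937 with the block), with 2 of the 3 control arrays above background. Tpx2, the activator of Aurora A on the spindle, was at 6.17, 5.45 and 5.74 against 34.4, 13.3 and 44.1 (2.24 ± 0.42, adjusted p = 0.0364, and 0.0517 with the block) on its probe with the higher mean, A_51_P369200, above background on 1 of the 3 control arrays, at chr2:152719476-152719535 (mm9, plus strand). The other Tpx2 probe, A_55_P2003576 at chr2:152720285-152720344, was above background on all 6 arrays and did not share this pattern, with 10.5, 16.3 and 8.39 in controls and 12.4, 14.4 and 4.34 in Yaa samples. Where this probe stood for the gene, in the fit limited to probes above background on all arrays and in the fit without Yaa replicate 3, the fold changes were -0.30 and 0.25 (adjusted p = 0.780 and 0.824). Hmmr, a spindle and hyaluronan-binding protein, was at 65.0, 54.9 and 73.1 against 80.2, 65.4 and 72.9 (0.18 ± 0.16, adjusted p = 0.594), and its groups overlapped.

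Kif4, a chromosome-bound kinesin, was not above background on any control array, at 1.43, 1.27 and 1.08, and was so on Yaa replicates 2 and 3, with 7.86, 7.32 and 11.6 in Yaa pools. It was not tested in the main fit, but passed where all probes were fitted (adjusted p = 0.00791) and without Yaa replicate 1 (adjusted p = 0.00383). These p-values rest on control values that were not measured. Without Yaa replicate 1 the lower bound was 1.63-fold. For Kif4 with all arrays no bound is given, since Yaa replicate 1 was itself below the background flag. Its Yaa arrays lay close together, with an SD of 0.36. Kif2c, a microtubule-depolymerizing kinesin, was above background on Yaa replicate 3 alone, and Kif11, the motor that separates spindle poles, on control replicate 1 and Yaa replicate 3, both at 10.5.

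**Figure D4:**
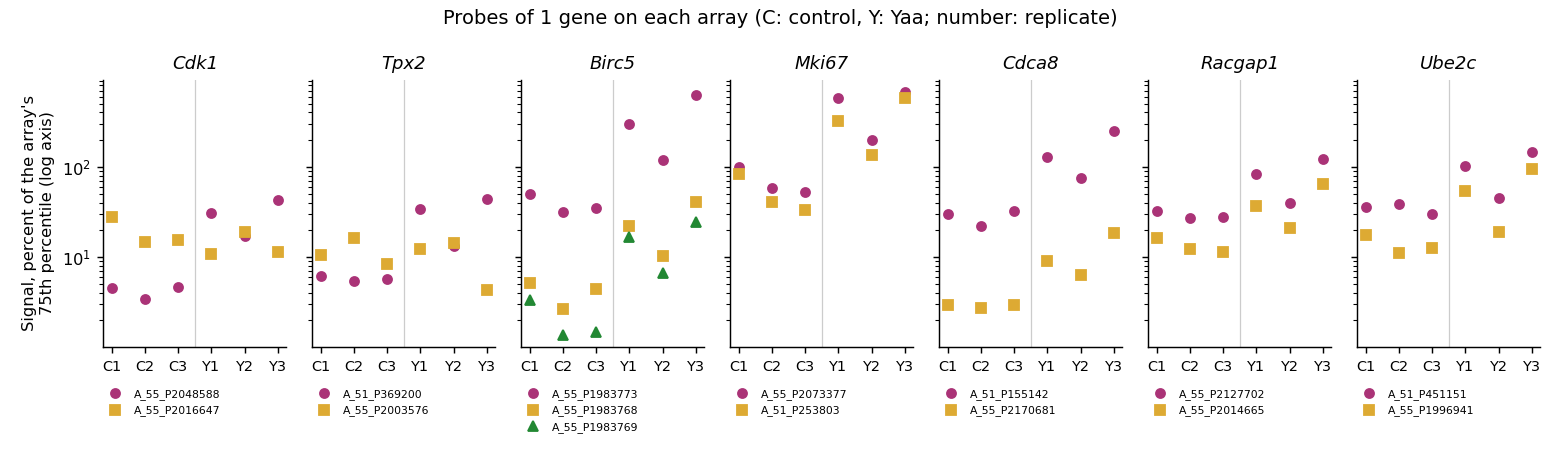
Signal as a percent of the array's 75th percentile (y axis, log scale) on each array (x axis; C, control; Y, Yaa; number, replicate) for every kept probe of the 7 mitotic genes with more than 1, each probe with its own symbol. The probes of Birc5, Mki67, Cdca8, Racgap1 and Ube2c ran together, while those of Cdk1 and Tpx2 differed, with 1 probe of each higher in Yaa pools (at least 5.02-fold for Cdk1, 2.24 on the log2 scale for Tpx2) and 1 not (-0.49 and -0.30).

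The genes of the spindle midzone and of cytokinesis, the final cleavage of the cell, were all tested. Kif23, the motor subunit of centralspindlin, was at 6.71, 5.34 and 6.10 in control pools and at 27.6, 18.5 and 39.5 in Yaa pools, and rose by 2.18 ± 0.28 (adjusted p = 0.00709). It was above background on 1 of the 3 control arrays, so that it was tested through its Yaa arrays and is not in the fit of probes above background on all 6 arrays. It had the smallest adjusted p of the 27 and passed in the other 13 alternatives, with 0.80 as its lowest fold change, under normexp correction. Prc1, which crosslinks the midzone microtubules, rose by 2.27 ± 0.46 (adjusted p = 0.0474, and 0.0510 with quantile normalization), from 55.2, 30.4 and 31.6 to 296, 90.9 and 223. In Prc1 replicate 1 and not replicate 3 was the highest Yaa array. Anln, anillin of the contractile ring, was at 22.1, 10.9 and 15.6 against 99.2, 35.6 and 77.1 (2.06 ± 0.42). Its adjusted p of 0.0503 lay just outside the threshold, as that of Aurka lay just inside it, and was 0.0105 with the block.

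Kif20a, a midzone kinesin, was at 8.14, 8.01 and 13.1 in control pools and at 51.7, 16.9 and 64.0 in Yaa pools (2.01 ± 0.50, adjusted p = 0.0937). Racgap1, the partner of Kif23 in centralspindlin, was at 32.2, 27.0 and 27.6 against 83.3, 39.7 and 121 (1.35 ± 0.38, adjusted p = 0.137), and its second probe differed by 1.48. Ect2, the exchange factor that activates RhoA at the cleavage site, was at 16.4, 12.7 and 18.3 against 43.9, 23.8 and 42.5 (1.18 ± 0.27, adjusted p = 0.0755, and 0.0331 with the block). In all 6 genes of this group every Yaa array lay above every control array, against 7.81% of all genes tested. For Kif23, tested through its Yaa arrays, this follows in part from the filter.

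Other genes of the cell cycle were read from 5 further lists. Of 60 other mitotic genes 39 were tested, and 8 rose and none fell, while 31 did not pass, with a median of 0.98. Arhgap11a, a GTPase-activating protein, rose by 2.37 ± 0.15 (adjusted p = 0.000517), Shcbp1 by 3.71 ± 0.52, Cdca5, sororin of the cohesin complex, by 2.99 ± 0.45, and the centromere protein Cenpi by 2.08 ± 0.32. In every control pool Arhgap11a, Shcbp1 and Cenpi were below the background flag (bounds of 3.38-, 3.44- and 2.32-fold). The count was 25 of 44 when Yaa replicate 2 was left out, 5, 1 and 2 when control replicate 1, 2 or 3 was, 5 and 4 when Yaa replicate 1 or 3 was, and 4 with normexp correction, with no filter or with only probes above background on all arrays. Among 38 genes of DNA replication and S phase 4 of 35 tested rose and none fell, while 31 did not pass, with a median of 0.47 and median distances from the control mean of 0.37, 0.20 and 0.75 on Yaa replicates 1 to 3. These were Tk1, thymidine kinase (3.17 ± 0.40), Uhrf1 (2.13 ± 0.38), the origin licensing factor Cdt1 (1.72 ± 0.32) and Rrm2, a subunit of ribonucleotide reductase (2.40 ± 0.46). Tk1 passed in all 14 alternatives. It was the only gene of the list to pass with the replicate block (0.0348) and when any 1 control array was left out, and with no filter 2 genes passed.

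Transcription factors of the cell cycle gave 3 rises among 23 tested and no fall, while 20 did not pass, with a median of -0.07. Mybl2, B-Myb, which binds CHR promoters together with the MuvB complex, rose by 1.04 ± 0.14 (adjusted p = 0.00951), and the atypical E2F factors E2f7 and E2f8 by 1.42 ± 0.23 and 3.49 ± 0.56. E2f8 was below the background flag in every control pool (bound 4.61-fold). Lin9 of the MuvB complex was at 0.68 ± 0.16 (adjusted p = 0.0746). With no filter, or when any 1 control array was left out, none of the 3 passed. E2f8 also missed the threshold without Yaa replicate 1 or 3 (0.0537 and 0.0579) and with normexp correction (0.095). With a gene's probes averaged Mybl2 and E2f7 did not pass (0.0779 and 0.0855). Among the cyclins, kinases and inhibitors of G1, 1 of 18 rose and none fell, while 17 did not pass, with a median of 0.08. It was Cdkn2a, the locus of the inhibitors p16INK4a and p19ARF, at 3.91 ± 0.63 (adjusted p = 0.0198). Its order differed from that of the mitotic genes, with 13.6, 8.23 and 5.89 in control pools and 93.0, 354 and 68.2 in Yaa pools, so that Yaa replicate 2 was the highest. Normexp correction gave Cdkn2a 2.19 (adjusted p = 0.0533), no filter gave an adjusted p of 0.0773, and without control replicate 2 or 3 it was 0.0904 and 0.102. Cdkn2c was at 0.94 ± 0.20 (adjusted p = 0.0555, and 0.0445 with the block), Ccne1 at 1.49 ± 0.32 (0.0584) and Gadd45a at -0.75 ± 0.32 (0.313). None of 22 tested regulators of Cdk1 and the anaphase-promoting complex passed limma's test, with a median of -0.11, and 3 had an unadjusted p under 0.05. Those were Pkmyt1, a kinase that inhibits Cdk1, at 1.26 ± 0.28 (adjusted p = 0.0639, and 0.0132 without Yaa replicate 2), Gmnn at 0.75 ± 0.23 and Wee1 at 0.96 ± 0.39, while Cdc26 was at -0.28 ± 0.12.

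Markers of several cell types moved on the same arrays. Macrophage markers gave 11 rises of 12, with a summed level of 2173 to 2532 in controls and 12679 to 19275 in Yaa samples. The one that did not pass was Cd14, and the median distance of the list from the control mean was 3.25, 3.67 and 4.75 on Yaa replicates 1 to 3, in which replicate 2 was not the lowest. Of 8 tested T cell markers, from 9 listed, none passed limma's test (2 at an unadjusted p under 0.05). Their summed level was 712 to 930 in controls and 897 to 2285 in Yaa samples. Their median distances were 0.93, 0.15 and 1.93 on Yaa replicates 1 to 3, the order of the mitotic genes. The order did not hold for Cd4 (368, 380 and 310 on Yaa replicates 1 to 3) or Cd8a (92.9, 4.64 and 6.55), and held for the other tested T cell markers. Of 8 B and plasma cell markers 1 rose, Jchain, which did not pass with the block, without a filter, or without control replicate 1, 2 or 3 or Yaa replicate 1. The summed level was 680 to 929 against 986 to 1444, with median distances of 1.06, -0.45 and 0.60, replicate 2 again being the lowest.

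None of 6 tested neutrophil markers of 8 passed limma's test (none at an unadjusted p under 0.05), with summed levels of 15129 to 17885 in controls and 12000 to 21784 in Yaa samples. Such sums follow their brightest probes, here Csf3r, which held 82.7% to 94% of the sum. Likewise none of 6 tested erythroid markers of 8 passed (none at an unadjusted p under 0.05), with 17262 to 23883 against 14458 to 31193. Klf1, a transcription factor of erythroid precursors, was not above background on any array. Of the resident cells, podocyte markers (6 of 8 tested, none passed) summed to 84179 to 88792 in controls and 60808 to 71225 in Yaa samples, endothelial markers (8 of 8 tested, none passed) to 56425 to 65780 and 37832 to 53329, and mesangial markers (8 of 8 tested, none passed) to 19340 to 20972 and 15321 to 18577. At an unadjusted p under 0.05 limma counted 1, 3 and 2 genes of these lists. The endothelial marker Plvap went against its list's sum, at 0.71 ± 0.18 (limma adjusted p = 0.0913). It rose with quantile normalization, with the intensity trend and without Yaa replicate 1, and Flt1 fell with the trend. Without Yaa replicate 1 the mesangial markers Serpine2 and Pdgfrb rose and fell, in that order. Of 4 tested parietal epithelial markers of 6, Cd44, which leukocytes also carry, rose, and Krt18 (-0.64), Pax8 (-0.61) and Krt8 (-0.52) did not pass, the first pair of these with an unadjusted p under 0.05. Their sum was 829 to 1040 against 818 to 1224. Proximal tubule markers (8 of 8 tested, none passed limma's test, none at an unadjusted p under 0.05) summed to 28989 to 54959 and 15904 to 46753, and among 7 tested distal nephron markers of 8 Slc12a1 fell, though not with no filter or when any array other than Yaa replicate 1 was left out, with 7326 to 8008 against 4436 to 6656. The part of any of these cell types in the mitotic differences was not tested.

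**Figure D5:**
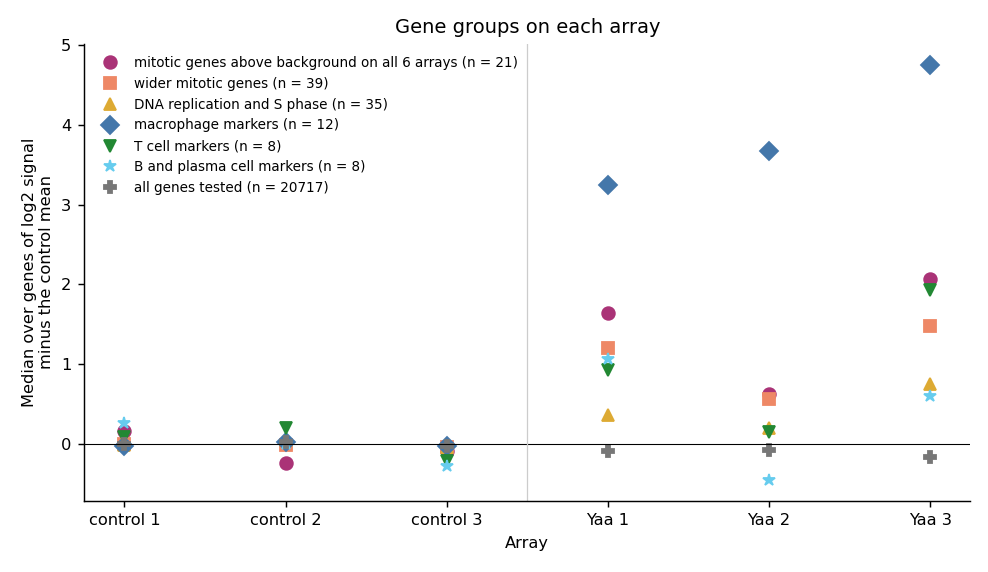
Median over the tested genes of a group of the log2 signal minus the control mean (y axis) on each array (x axis), for the mitotic genes above background on all 6 arrays, other cell cycle lists, leukocyte marker lists and all genes. Among the Yaa arrays replicate 2 was lowest for the mitotic genes (0.63), other mitotic genes (0.56), S phase genes (0.20), T cell markers (0.15) and B and plasma cell markers (-0.45), while macrophage markers stood at 3.25, 3.67 and 4.75 and all genes between -0.16 and -0.07.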

How the data were processed

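The genes and lists were chosen with earlier results of these data known. RNA was amplified and labelled with Cy3, 1 array per pool. The deposited signal intensity came from Agilent Feature Extraction 10.7.3.1, per the file headers (9.5.3 in the submitters' processing notes), which had subtracted background, detrended within the array and replaced dim spots by surrogate values. The headers place probes on mm9. Differences of dim probes rest partly on surrogates.

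For each array the 3671 control spots and the outlier spots (121 to 166) were left out, the log2 intensity of a probe's spots was averaged and the 75th percentile over 55681 probes subtracted. A probe was kept (28599 were) where, on each of the 3 arrays of either group, a share of at least 0.5 of its spots was well above background. A gene, by array name, was its kept probe with the highest mean. No spot was saturated. Names in other lists came from RefSeq by accession (26762 probes), symbol (3819) or synonym (639). The strains were set against each other in limma 3.58.1 (R 4.3.3), with two-sided p-values on 4 residual plus 2.84 prior degrees of freedom and a threshold of 0.05 on the adjusted p. In 4 genes a value was missing on an array. The script was tested on simulated data. A bound sets the Yaa mean against, per control array, the higher of the probe's own signal and the lowest signal well above background.

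All 38 genes are named, with up to 4 genes of each further list by adjusted p. Of the marker lists the text names genes chosen after their values were seen. Some marker genes are not reported here. Deviations from group means correlated at 0.126, 0.205 and 0.218 for arrays of the same replicate number, which runs with the slide row, and at -0.194 to 0.0279 for others. The replicate block treats them as pairs, and no label states the pairing. Pools held different glomerular populations, and p-values measure the spread between pools. Alternatives were the array median, quantile normalization, normexp (offset 50), no filter, a filter on all 6 arrays, the mean of a gene's probes, an intensity trend with robust variances, the block, and each array left out.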

Additional observations from a re-analysis of the deposited data

How the results depend on the processing

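The number of mitotic genes that rose was 10, against 6 with normexp and 2 where all dim probes were kept (38 tested). It was 1 to 24 with each array left out in turn, as given above. The median over the tested mitotic genes, 2.06, was 0.92 with normexp and 1.34 with only probes above background on all 6 arrays, in which fewer genes were tested. No mitotic gene fell in any of the 14 alternatives. Of the 27 genes tested, 26 had a positive fold change in 11 of the 14, and 20 of 22 did with only probes above background on all 6 arrays; Cdk1 and Tpx2 were the ones below 0. Tpx2 was at -0.30 there, on its other probe. Cdk1 was at 0.91 with normexp and at 1.14 where its kept probes were averaged. Over all genes, with no filter, 375 genes rose and 21 fell, with a median of -0.06, against 614, 176 and -0.11. With the replicate block 98 fell, and with each array left out 362 to 706 rose and 31 to 321 fell. Why these counts moved was not tested. Scaling by the array median or by quantiles left the median of the mitotic genes at 2.10 and 2.08. Genes near background, among them 11 of the 38, are limited by the arrays' signal over background.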
